A study of Homo sapiens with 12 samples.

Results

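The difference of TBZ effects between the lines is, for each gene, the change in expression after TBZ in MLKL-depleted HT-29 cells minus the change after TBZ in control HT-29 cells. It was formed from 8 of the 12 libraries of the series and measured for the 10364 of 19128 gene symbols that reached 1 FPKM on average in any group. ABHD16A, at 1.0009 FPKM in its highest group, was the last gene inside that limit and RAB26, at 0.99966 FPKM, the first outside it. HT-29 is a human colorectal adenocarcinoma line, kept in RPMI medium. The control line, shGFP, carries an shRNA against GFP, which the labels list as no knockdown; the shMLKL line carries an shRNA against MLKL delivered by lentivirus. Each line was given either the solvent DMSO or TBZ for 5 h, and each of the 4 groups had 2 libraries. TBZ combines TNFα at 20 ng/mL, the IAP antagonist BV6 at 2 µM and the caspase inhibitor zVAD-fmk at 30 µM. The labels do not say whether a line was a clone or a pool. Nor do they say that the paired libraries of a group were grown as separate cultures, so each p-value reflects the spread between these libraries alone, part or all of which may be technical.

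TNFα binding to its receptor TNFR1 starts NF-kB and MAP kinase signalling, which switch on inflammatory and survival genes. When IAP proteins (inhibitors of apoptosis) and caspases are blocked as well, RIPK1 and RIPK3 assemble into the necrosome, which phosphorylates the pseudokinase MLKL. Phosphorylated MLKL moves to the plasma membrane and permeabilises it, and this lytic death is called necroptosis. A comparison of the TBZ effect between cells with and without MLKL therefore asks which transcript changes differ when the executioner of that death is depleted.

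The targeted gene was measured first. MLKL (hg19 chr16:74705753-74734789, minus strand) stood at 3.95 and 3.88 FPKM under DMSO and 1.98 and 2.03 FPKM after TBZ in shGFP cells. In shMLKL cells MLKL stood at 0.606 and 0.545 and then 0.651 and 0.395 FPKM. All 4 shMLKL libraries lay below all 4 shGFP libraries and MLKL itself fell with TBZ in shGFP cells by 0.71 on the log2 scale (limma adjusted p = 0.000595). Values are FPKM, fragments scaled to transcript length and library size, a unit taken from the values since the table does not name it, and there are no read counts. Depth is therefore known only in relative terms: the libraries reached 82.9 to 100% of the deepest, with 9606 to 10047 genes at 1 FPKM or more. Libraries of 1 group correlated at 0.989 to 0.992 (Pearson, log2 values across genes, which are not independent replicates), and libraries of different groups at 0.928 to 0.967. Epithelial markers were present, with EPCAM at 312 to 393 FPKM and CDH1 at 80.5 to 93.0 FPKM, while the intestinal factors CDX1 and CDX2 stood below 0.21 FPKM in every library. Of 15 leukocyte markers 3 reached a mean of 1 FPKM in a group (LYZ, CD68 and CD14), and CD3D, CD3E, MS4A1 and NKG7 were at 0 in all 8 libraries; the summed level ran from 527 to 530 FPKM in TBZ-treated shGFP cells and from 604 to 663 in the other groups, nearly all of it LYZ. Of 15 fibroblast and endothelium markers 2 reached it (ACTA2 and VIM), and their sum stayed between 1.34 and 3.69 FPKM. Some genes carry failed estimates: KRT8 was listed at 0 in 7 libraries and at 694 FPKM in the other. A 0 occurred in 40 of the 2306 genes called below and in 28 of the 195 large differences, and those genes are not described further.

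The TBZ effect differed between the lines for 2306 of 10364 genes (22.3%) at a limma adjusted p under 0.05, where a positive difference means a higher effect in shMLKL cells. Of these, 1512 differences were positive (14.6%) and 794 negative (7.66%). The direction of the many small differences depended on how the libraries were scaled: 65.6% of calls were positive in the deposited values, 38.9% once the libraries had equal medians and 50.8% after quantile normalization. The median difference over all genes was 0.10. The number of calls also depended on single libraries. It was 1327 and 1474 without shGFP DMSO library 1 or 2, 1466 and 1430 without shGFP TBZ library 1 or 2, and 1489 without shMLKL DMSO library 2. Large differences went mostly one way. Of the 195 genes that differed by at least 1 log2 unit (1.88%), 144 had a lower effect in shMLKL cells (1.39%) and 51 a higher one (0.492%).

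Genes were sorted by the limma calls within each line. TBZ changed 56.4% of genes in shGFP cells and 37.5% in shMLKL cells. A response is called blunted when it was called in both lines with the same sign and was smaller in shMLKL cells, lost when it was called in shGFP cells only, opposite when it was called with opposite signs, enhanced when it was larger in shMLKL cells, and gained when it was called in shMLKL cells only. Among rises, 366 were blunted, 216 lost, 81 opposite, 104 enhanced and 215 gained. Among falls, 253 were blunted, 827 lost, 89 opposite, 39 enhanced and 89 gained, and 27 genes fitted none of these. With 1 library left out, lost falls numbered 406 to 632, blunted falls 87 to 141 and lost rises 148 to 237. The excess of lost falls over lost rises depended on the scaling: with equal library medians there were 358 lost falls and 342 lost rises, and 129 blunted falls. The lost falls were small, with a median shGFP effect of −0.41 log2 units, whereas the blunted rises had a median of 1.21 in shGFP and 0.52 in shMLKL cells and kept a median of 45.9% of the shGFP effect. The stronger the shGFP response, the more often it was reduced: of 1980 rises called in shGFP cells 663 (33.5%) were blunted, lost or opposite, and of the 381 rises of at least 1 log2 unit 277 (72.7%) were. For falls the same counts were 1169 of 3864 (30.3%) and 103 of 156 (66%). A larger effect gives a difference more room to pass the test, so these shares describe size as much as kind. Choosing genes by a large shGFP effect also favours a smaller effect in shMLKL cells. Chosen instead by a rise of at least 1 log2 unit in shMLKL cells, 78 of 218 (35.8%) were blunted, 46 enhanced and 5 gained. For such falls in shMLKL cells, 16 of 78 (20.5%) were blunted or opposite, 15 enhanced and 3 gained.

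**Figure D1:**
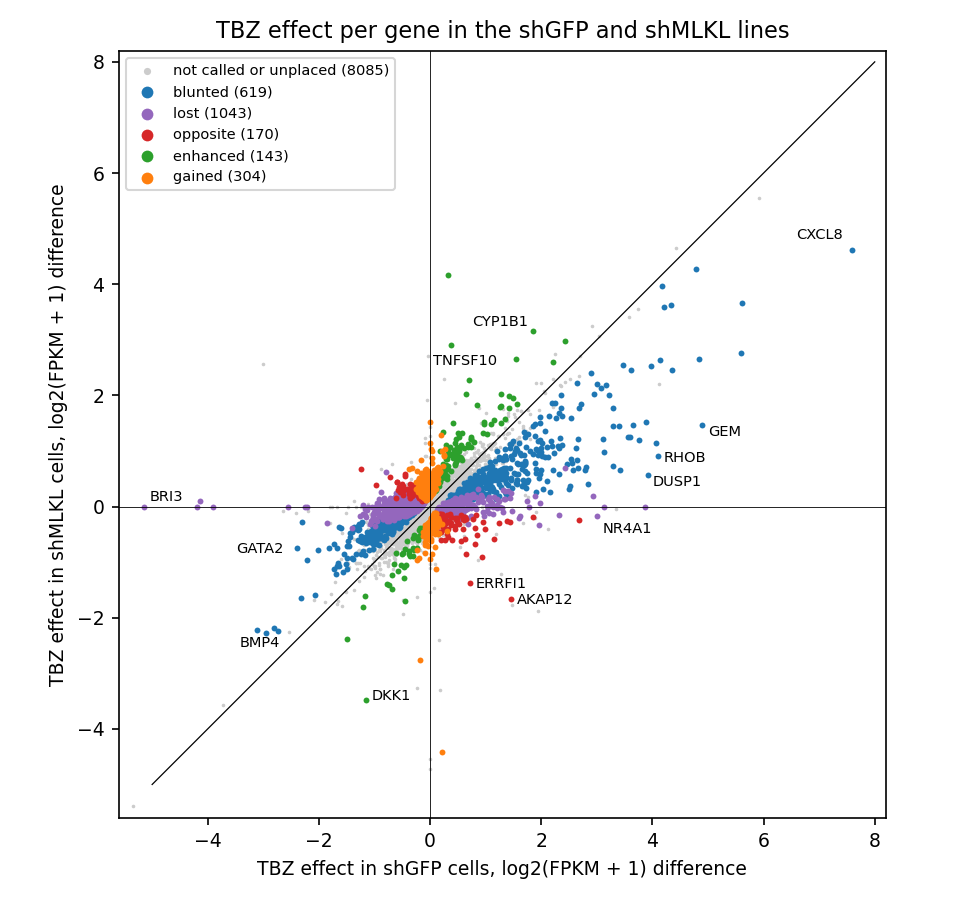
Each point is 1 of 10364 genes, with the TBZ effect in shGFP cells on the horizontal axis and in shMLKL cells on the vertical axis, both as differences of mean log2(FPKM + 1); colours mark the response classes and the diagonal marks equal effects. Strong rises lie below the diagonal, with CXCL8 at 7.59 and 4.61, and a small set that includes TNFSF10 and CYP1B1 lies above it; points on the horizontal axis at the far left, such as BRI3, are genes listed at 0 in some libraries.

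A difference of effects equals the line difference under TBZ minus the line difference under DMSO, so each gene was also sorted by where the lines stood apart. The lines differed under DMSO for 63.1% of all genes and under TBZ for 51.7%. Of the 2306 genes, 786 (34.1%) differed between the lines under DMSO only and 721 (31.3%) under both with the larger gap under DMSO. A further 332 (14.4%) differed under both with the larger gap under TBZ, 458 (19.9%) under TBZ only and 9 under neither. Most of the called differences, 65.4%, thus coincided with a starting level that already set the lines apart by more than the treated level did. Large negative differences were split the other way: for 91 of 144 (63.2%) the lines stood further apart under TBZ, and for 53 (36.8%) under DMSO. For the 51 large positive differences the DMSO gap was the larger in 40 (78.4%). On the additive scale, the difference of the FPKM increments had the same sign as the log2 difference for 2283 of the 2306 genes (99.0%).

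**Figure D2:**
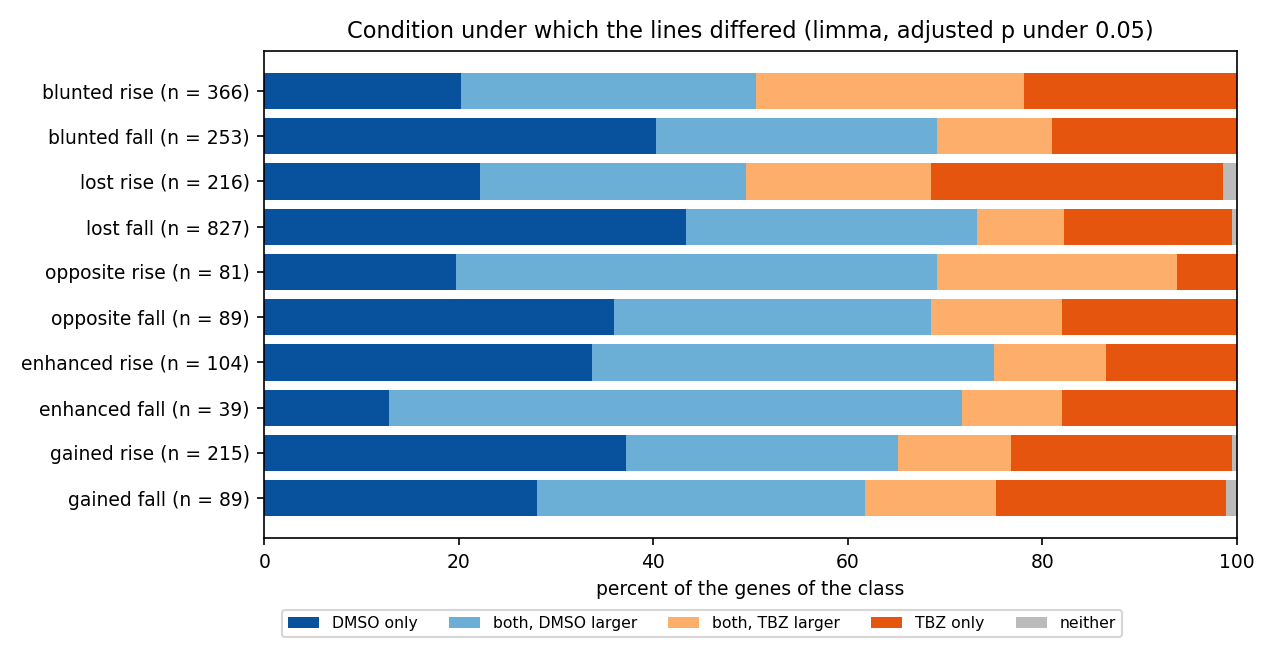
Bars give the percent of called genes in each response class by the condition in which the lines differed, from DMSO only (dark blue) to TBZ only (dark orange). The lines stood apart mainly under DMSO in the lost falls (43.4% DMSO only), and the largest share of TBZ-only genes was in the lost rises (30.1%).

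Several neutrophil-attracting chemokines and inflammatory cytokines rose less in shMLKL cells. Counts in this and later gene lists stand against 22.3% of all genes called, 14.6% higher and 7.66% lower. Of 12 chemokines measured, 6 had a smaller rise in shMLKL cells and 2 a larger one, with a median difference of −0.56; of 18 cytokines and growth factors of inflammation, 13 were called, all negative, with a median of −0.99. CXCL8 (interleukin 8, hg19 chr4:74606223-74609433, plus strand), a neutrophil chemoattractant, stood at 15.6 and 17.3 FPKM under DMSO and 3413 and 3303 FPKM after TBZ in shGFP cells. In shMLKL cells CXCL8 stood at 10.6 and 5.94 and then 218 and 218 FPKM. Both lines induced it strongly, the treated levels did not overlap, and the difference was −2.98 ± 0.28 (SE; limma adjusted p = 0.000478). Its neighbour CXCL1 (hg19 chr4:74735109-74737019, plus strand), a ligand of the same receptor, stood at 6.31 and 6.29 FPKM under DMSO and 204 and 209 FPKM after TBZ in shGFP cells. In shMLKL cells CXCL1 stood at 3.73 and 3.07 and then 26.9 and 26.3 FPKM. The shMLKL rise was called but smaller, with a difference of −2.18 ± 0.10 (SE; limma adjusted p = 1.20e-05). CCL20, which recruits CCR6-bearing lymphocytes and dendritic cells, was at 5.11 and 7.46 FPKM under DMSO and 358 and 344 FPKM after TBZ in shGFP cells. In shMLKL cells CCL20 stood at 3.52 and 2.30 and then 49.7 and 46.1 FPKM, a difference of −1.95 ± 0.25 (SE; limma adjusted p = 0.00195). CSF2 (hg19 chr5:131409485-131411863, plus strand), the granulocyte-macrophage colony-stimulating factor, was near 0 under DMSO in both lines. It stood at 0.290 and 0.210 FPKM under DMSO and 59.6 and 58.4 FPKM after TBZ in shGFP cells. In shMLKL cells CSF2 stood at 0.429 and 0.203 and then 8.81 and 7.10 FPKM, and the difference was −2.82 ± 0.16 (SE; limma adjusted p = 4.66e-05). The DMSO libraries of both lines overlapped for CSF2 and the TBZ libraries did not. Endothelin 1 (EDN1), a vasoactive peptide, showed a rise in shGFP cells that was not called in shMLKL cells, from 2.27 and 1.54 to 10.7 and 9.68 FPKM against 1.67 and 2.04 and then 1.29 and 1.25 FPKM (difference −2.28 ± 0.18 SE, limma adjusted p = 0.000212).

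Promoters of CXCL8, CXCL1 and CCL20 are shown because all 3 were blunted rises. Each line holds the 150 bases upstream of the RefSeq start (GRCh38.p14), with matches in capitals: the AP-1 motif TGANTCA in CXCL8 and the NF-kB consensus in CXCL1 and CCL20. Only exact matches are marked. The stretch tggaatttcc in CXCL8 differs from the NF-kB consensus in its first letter alone and stays in lower case.
CXCL8 (chr4:73740419-73740568, plus strand): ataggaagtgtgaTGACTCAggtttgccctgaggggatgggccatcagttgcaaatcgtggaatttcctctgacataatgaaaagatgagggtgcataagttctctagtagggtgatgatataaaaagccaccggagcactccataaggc
CXCL1 (chr4:73869243-73869392, plus strand): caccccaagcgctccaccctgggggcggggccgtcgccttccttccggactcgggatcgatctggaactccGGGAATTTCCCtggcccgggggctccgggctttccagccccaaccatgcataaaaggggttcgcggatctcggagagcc
CCL20 (chr2:227813692-227813841, plus strand): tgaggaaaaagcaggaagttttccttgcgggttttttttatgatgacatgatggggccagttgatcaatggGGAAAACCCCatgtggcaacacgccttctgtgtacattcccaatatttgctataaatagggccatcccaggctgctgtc

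NF-kB feedback and survival genes, which restrain or relay the TNF signal, kept most of their rise. Of 36 measured, 33 rose in shGFP cells and 34 in shMLKL cells; 14 rises were smaller in shMLKL cells and 5 larger, with a median difference of −0.18. With equal library medians the counts were 18 and 2, and 9 rises were smaller without either shGFP TBZ library or without shMLKL TBZ library 2; larger ones numbered 1 to 3 without any library but shMLKL DMSO library 1. IER3, an immediate early survival factor, was level at the start, at 13.1 and 13.2 FPKM in shGFP and 12.97 and 13.01 in shMLKL cells. After TBZ it reached 70.8 and 67.9 against 20.2 and 19.7 FPKM, a difference of −1.73 ± 0.05 (SE; limma adjusted p = 3.89e-06). SDC4, a syndecan of the cell surface, rose from 85.3 and 90.4 to 776 and 718 FPKM and from 96.1 and 100.4 to 433 and 433 FPKM (difference −0.94 ± 0.07 SE, limma adjusted p = 0.000121). RIPK2, the kinase downstream of NOD receptors, rose to 54.7 and 50.0 FPKM in shGFP and 39.3 and 38.5 FPKM in shMLKL cells from starts of 17.6 and 17.7 and 23.9 and 26.4 FPKM (difference −0.90 ± 0.08 SE, limma adjusted p = 0.000386). The inhibitor NFKBIA differed by −0.20 and the ubiquitin editor TNFAIP3 by −0.52 (limma adjusted p = 0.048 and 0.0435), so the reduction of these feedback genes was small beside that of the chemokines.

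Immediate early genes, whose transcription follows MAP kinase and serum response factor signalling within minutes, were the list with the largest median difference, −1.25 over 30 genes against 0.10 over all genes. Of the 30, 26 had a lower effect in shMLKL cells and 1 a higher one. GEM, a small GTP-binding protein, stood at 1.02 and 1.30 FPKM under DMSO and 65.3 and 61.1 FPKM after TBZ in shGFP cells. In shMLKL cells GEM stood at 3.49 and 4.68 and then 13.3 and 12.6 FPKM. RHOB (hg19 chr2:20646835-20649201, plus strand), an immediate early small GTPase, stood at 9.53 and 11.2 FPKM under DMSO and 198 and 189 FPKM after TBZ in shGFP cells. In shMLKL cells RHOB stood at 19.4 and 18.8 and then 36.1 and 37.2 FPKM. DUSP1 (hg19 chr5:172195093-172198203, minus strand), a phosphatase that inactivates p38 and JNK, stood at 2.86 and 3.43 FPKM under DMSO and 63.0 and 59.5 FPKM after TBZ in shGFP cells. In shMLKL cells DUSP1 stood at 10.6 and 11.7 and then 17.5 and 16.7 FPKM. In these 3 genes shMLKL cells started higher and ended lower, with no overlap in either condition, and the differences were −3.43 ± 0.16 (SE; limma adjusted p = 1.79e-05), −3.20 ± 0.09 (SE; limma adjusted p = 2.70e-06) and −3.34 ± 0.11 (SE; limma adjusted p = 4.78e-06). NR4A1 (hg19 chr12:52416616-52453291, plus strand), an orphan nuclear receptor, differed in kind. It stood at 0.779 and 1.25 FPKM under DMSO and 15.9 and 14.4 FPKM after TBZ in shGFP cells. In shMLKL cells NR4A1 stood at 1.52 and 1.33 and then 1.15 and 1.15 FPKM; the rise was called in shGFP cells and not in shMLKL cells, where TBZ libraries lay slightly below DMSO libraries, and the difference was −3.19 ± 0.17 (SE; limma adjusted p = 2.88e-05). The AP-1 subunits themselves were blunted rises, with differences of −2.75 for FOS, −2.17 for JUN, −1.90 for FOSB and −2.35 for ATF3 (limma adjusted p of at most 8.87e-05). ARL14, an ARF-like GTPase outside this list, had the same shape. ARL14 stood at 6.51 and 8.18 FPKM under DMSO and 142 and 136 FPKM after TBZ in shGFP cells. In shMLKL cells ARL14 stood at 11.6 and 14.6 and then 29.4 and 30.3 FPKM, a difference of −2.93 ± 0.16 (SE; limma adjusted p = 4.29e-05).

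Among 22 MAP kinase feedback regulators 14 had a lower and 1 a higher effect in shMLKL cells, with a median of −0.63. DUSP5, a nuclear phosphatase of ERK, started at 4.64 and 5.43 FPKM in shGFP and 18.2 and 19.3 FPKM in shMLKL cells and reached 35.0 and 31.7 and 24.6 and 24.7 FPKM (difference −2.13 ± 0.10 SE, limma adjusted p = 2.08e-05). ERRFI1 (hg19 chr1:8071779-8086393, minus strand), an inhibitor of the EGF receptor, moved in opposite directions. It stood at 207 and 233 FPKM under DMSO and 366 and 356 FPKM after TBZ in shGFP cells. In shMLKL cells ERRFI1 stood at 238 and 238 and then 89.6 and 93.7 FPKM. The lines were not called different under DMSO (0.12, limma adjusted p = 0.0937). The rise in shGFP and the fall in shMLKL cells were both called, and the difference was −2.08 ± 0.08 (SE; limma adjusted p = 6.78e-06).

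Lower effects in shMLKL cells were also found among growth factor ligands and targets of SRF and YAP. HBEGF (hg19 chr5:139712428-139726188, minus strand), a membrane-anchored EGF receptor ligand, stood at 6.30 and 6.19 FPKM under DMSO and 56.3 and 52.3 FPKM after TBZ in shGFP cells. In shMLKL cells HBEGF stood at 8.03 and 8.81 and then 9.10 and 10.5 FPKM; its rise was called in shGFP cells and not in shMLKL cells, a difference of −2.73 ± 0.11 (SE; limma adjusted p = 7.42e-06). AREG, the ligand amphiregulin, differed in its start. It stood at 103 and 114 FPKM under DMSO and 238 and 234 FPKM after TBZ in shGFP cells. In shMLKL cells AREG stood at 247 and 231 and then 244 and 256 FPKM. Here the lines differed under DMSO and not under TBZ (line difference 0.08 after TBZ, limma adjusted p = 0.246), and the lost rise (difference −1.05 ± 0.08 SE, limma adjusted p = 0.000144) went with a start in shMLKL cells near the treated level. Of 13 ligands of the BMP, FGF and EGF families 7 had a lower and 1 a higher effect in shMLKL cells (61.5% called against 22.3%). Of 25 cytoskeletal targets of SRF and YAP, 14 had a lower and 0 a higher effect, with a median of −0.59. THBS1, the matrix protein thrombospondin 1, stood at 2.36 and 2.07 FPKM under DMSO and 31.3 and 29.5 FPKM after TBZ in shGFP cells. In shMLKL cells THBS1 stood at 0.554 and 0.557 and then 1.51 and 1.66 FPKM (difference −2.56 ± 0.10 SE, limma adjusted p = 8.16e-06). CTGF, a matricellular YAP target, was at 0.679 and 0.737 FPKM under DMSO and 8.18 and 6.87 FPKM after TBZ in shGFP cells. In shMLKL cells CTGF stood at 1.01 and 1.15 and then 0.774 and 0.977 FPKM, a lost rise (difference −2.47 ± 0.14 SE, limma adjusted p = 5.37e-05). CYR61, of the same protein family, had an opposite response, from 1.82 and 1.54 to 16.5 and 15.9 FPKM in shGFP and from 6.20 and 6.99 to 5.33 and 5.52 FPKM in shMLKL cells (difference −2.93 ± 0.11 SE, limma adjusted p = 6.78e-06). PLAUR, the urokinase receptor, and AMOTL2, an angiomotin, differed by −1.34 and −1.32, with higher shMLKL levels under DMSO and lower ones under TBZ.

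**Figure D3:**
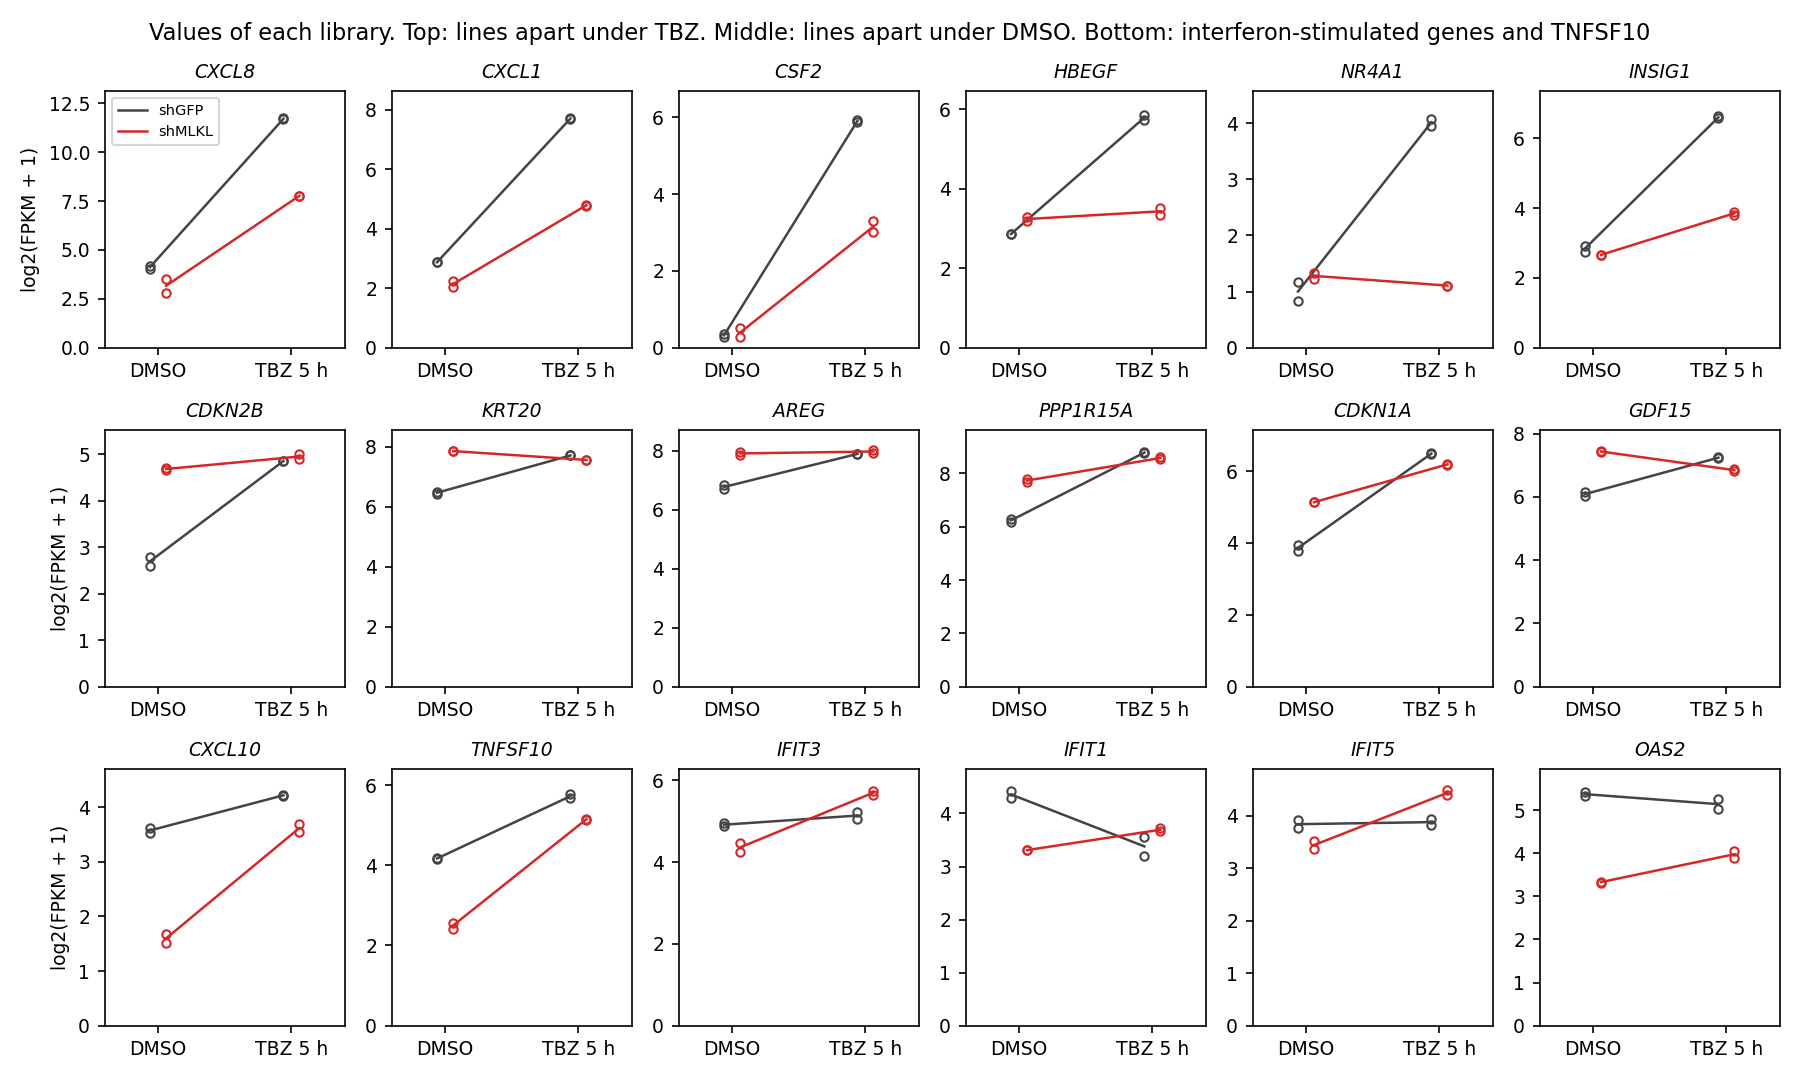
Open circles are the 8 libraries and lines join group means of log2(FPKM + 1) under DMSO and after 5 h of TBZ, in shGFP (grey) and shMLKL (red) cells; each panel has its own vertical axis from 0. In the top row (CXCL8 to INSIG1) the lines part after TBZ, and in the middle row (CDKN2B to GDF15) they start apart and meet or cross. In the bottom row shMLKL cells start lower and rise. There shGFP cells rise less on the log2 scale (CXCL10, TNFSF10, IFIT3), have no called change (IFIT5, OAS2) or fall (IFIT1).

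In several stress and growth-arrest genes the lines stood further apart under DMSO than after TBZ. CDKN2B, the CDK inhibitor p15, KRT80, a type II keratin, and AREG were the 3 largest of the genes that differed between the lines under DMSO only. CDKN2B (hg19 chr9:22002902-22009312, minus strand) stood at 5.06 and 5.92 FPKM under DMSO and 27.9 and 27.8 FPKM after TBZ in shGFP cells. In shMLKL cells CDKN2B stood at 24.4 and 24.9 and then 28.8 and 31.0 FPKM. After TBZ the line difference was 0.10 (95% interval −0.06 to 0.25, limma adjusted p = 0.261), while under DMSO it was 1.98, and the difference of effects was −1.89 ± 0.10 (SE; limma adjusted p = 2.53e-05). KRT80 started at 31.8 and 35.8 FPKM in shGFP and 90.2 and 90.1 FPKM in shMLKL cells and stood at 60.4 and 63.1 and 64.5 and 61.1 FPKM after TBZ, an opposite response. KRT20 (hg19 chr17:39032141-39041495, minus strand), a keratin of differentiated enterocytes, rose in shGFP cells and fell in shMLKL cells, at 86.1 and 89.3 FPKM under DMSO and 209 and 209 FPKM after TBZ in shGFP cells. In shMLKL cells KRT20 stood at 229 and 234 and then 188 and 188 FPKM (difference −1.54 ± 0.04 SE, limma adjusted p = 2.40e-06). GDF15, a stress-induced cytokine of the TGF-β family, behaved alike at 64.2 and 69.7 FPKM under DMSO and 148 and 152 FPKM after TBZ in shGFP cells. In shMLKL cells GDF15 stood at 174 and 169 and then 117 and 111 FPKM (difference −1.74 ± 0.07 SE, limma adjusted p = 7.42e-06).

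PPP1R15A (GADD34, hg19 chr19:49375649-49379319, plus strand), the phosphatase subunit that reverses eIF2α phosphorylation, stood at 71.7 and 77.5 FPKM under DMSO and 446 and 433 FPKM after TBZ in shGFP cells. In shMLKL cells PPP1R15A stood at 204 and 220.1 and then 370.1 and 394 FPKM. It rose in both lines from a start in shMLKL cells that was 1.49 log2 units higher, and the difference was −1.70 ± 0.08 (SE; limma adjusted p = 1.63e-05). Of 40 genes of the unfolded protein and integrated stress response 14 had a lower and 5 a higher effect in shMLKL cells, and 18 and 0 with equal library medians; the higher ones fell to 0 or 1 without any library but shGFP TBZ library 1. Of 28 heat shock and oxidative stress genes 13 had a lower and 0 a higher effect, and 8 had a lower one without either shGFP DMSO library, shGFP TBZ library 1 or shMLKL DMSO library 2. DNAJB1, an HSP40 co-chaperone, rose from 19.4 and 21.4 to 44.8 and 46.5 FPKM in shGFP cells and stood at 40.6 and 42.5 and then 37.5 and 38.0 FPKM in shMLKL cells (difference −1.26 ± 0.07 SE, limma adjusted p = 5.31e-05). GCLC, the catalytic subunit for glutathione synthesis, and TXNRD1, thioredoxin reductase, rose in both lines with differences of −0.94 and −0.89 (limma adjusted p = 0.000126 and 0.000237). Of 28 p53 targets 11 had a lower and 5 a higher effect, 12 and 2 with equal library medians, and 3 a higher one without shGFP DMSO library 2, shGFP TBZ library 1, shMLKL DMSO library 2 or shMLKL TBZ library 2. CDKN1A (p21), a CDK inhibitor, stood at 12.6 and 14.5 FPKM under DMSO and 88.3 and 89.0 FPKM after TBZ in shGFP cells. In shMLKL cells CDKN1A stood at 34.0 and 34.3 and then 72.4 and 71.4 FPKM (difference −1.57 ± 0.08 SE, limma adjusted p = 2.88e-05). GADD45B and the kinase PLK3 were blunted rises too, with differences of −1.80 and −1.64, whereas POLH, a translesion polymerase, had an enhanced rise (1.59, limma adjusted p = 0.00111). POLH did not meet the level rule for named genes, which asks for 5 FPKM in the highest group and no 0.

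The cyclic AMP response element TGACGTCA lies in the 150 bases upstream of DUSP1, PPP1R15A and AREG, and also of VPS37B, which is not shown. DUSP1, PPP1R15A and AREG started higher in shMLKL cells, and DUSP1 and PPP1R15A ended lower there. Whether the element goes with this pattern was not tested. The match is in capitals (RefSeq, GRCh38.p14); the AP-1 motif, with 1 base fewer, cannot match it.
DUSP1 (chr5:172771196-172771345, minus strand): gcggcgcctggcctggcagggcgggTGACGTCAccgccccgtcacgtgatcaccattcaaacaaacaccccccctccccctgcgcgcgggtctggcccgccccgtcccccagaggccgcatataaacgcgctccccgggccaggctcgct
PPP1R15A (chr19:48872271-48872420, plus strand): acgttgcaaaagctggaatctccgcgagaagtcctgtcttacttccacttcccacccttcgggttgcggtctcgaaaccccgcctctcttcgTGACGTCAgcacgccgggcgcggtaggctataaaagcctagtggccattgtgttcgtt
AREG (chr4:74444986-74445135, plus strand): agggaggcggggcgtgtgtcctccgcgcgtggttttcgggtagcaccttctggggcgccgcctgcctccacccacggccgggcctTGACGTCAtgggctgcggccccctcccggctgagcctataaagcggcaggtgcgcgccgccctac

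In genes of cholesterol synthesis and uptake the lines stood further apart after TBZ than under DMSO. Of 26 measured, 11 had a lower and 0 a higher effect in shMLKL cells, under each scaling as well. Of these 11, the lines differed under TBZ only in 4 and under both, with the larger gap under TBZ, in 7. INSIG1 (hg19 chr7:155089486-155101945, plus strand), the endoplasmic reticulum anchor that restrains SREBP processing, stood at 6.61 and 5.75 FPKM under DMSO and 97.8 and 94.4 FPKM after TBZ in shGFP cells. In shMLKL cells INSIG1 stood at 5.32 and 5.32 and then 12.97 and 13.9 FPKM (difference −2.57 ± 0.09 SE, limma adjusted p = 6.78e-06). HMGCS1, the synthase of HMG-CoA, stood at 17.8 and 17.9 FPKM under DMSO and 136 and 127 FPKM after TBZ in shGFP cells. In shMLKL cells HMGCS1 stood at 19.1 and 19.2 and then 30.2 and 33.6 FPKM (difference −2.10 ± 0.08 SE, limma adjusted p = 6.78e-06). Both genes rose in both lines, the line differences under DMSO were −0.18 and 0.10 log2 units, and the treated levels did not overlap.

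Regulators of cell survival were mixed. MCL1, an anti-apoptotic BCL2 family member, stood at 73.5 and 77.5 FPKM under DMSO and 302 and 296 FPKM after TBZ in shGFP cells. In shMLKL cells MCL1 stood at 116 and 122 and then 178 and 181 FPKM (difference −1.39 ± 0.05 SE, limma adjusted p = 7.42e-06). PMAIP1 (NOXA), which opposes MCL1, rose to 63.2 and 61.6 FPKM in shGFP and 29.7 and 31.1 FPKM in shMLKL cells from 10.9 and 11.7 and 14.8 and 12.3 FPKM (difference −1.26 ± 0.11 SE, limma adjusted p = 0.000382). Of 30 BCL2 and caspase family regulators 6 had a lower and 3 a higher effect, 30% of the list against 22.3% of all genes, and 8 and 2 with equal library medians. Their median difference was −0.06.

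**Figure D4:**
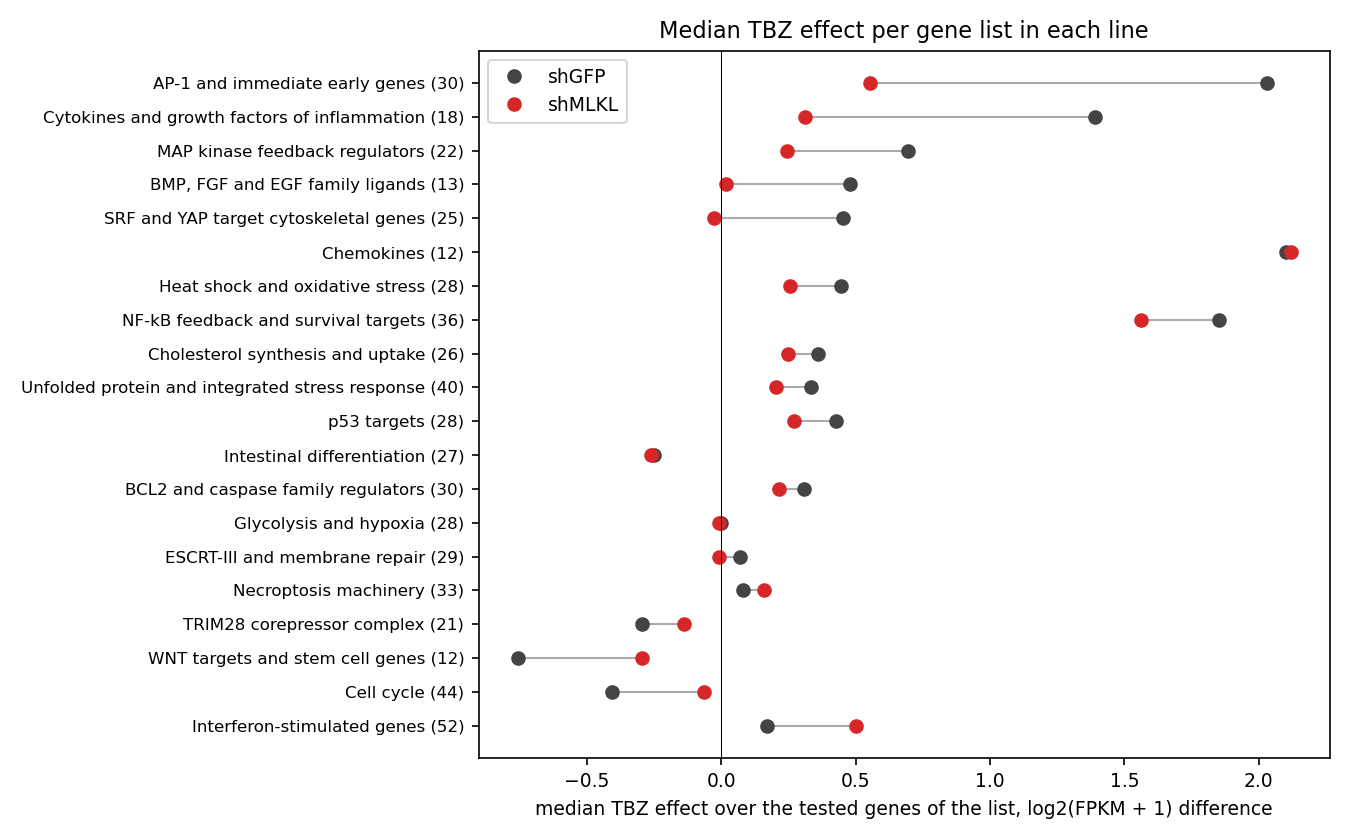
Points give the median TBZ effect over the measured genes of each list in shGFP (grey) and shMLKL (red) cells, as a difference of mean log2(FPKM + 1), with the number of genes in brackets. The widest gaps are in the immediate early genes (2.03 and 0.55) and the inflammatory cytokines (1.39 and 0.31), and the interferon-stimulated genes lie the other way (0.17 and 0.50).

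Interferon-stimulated genes went mostly the other way. Of 52 measured, 27 had a higher and 5 a lower effect, with a median of 0.35 (22 and 6 with equal library medians, 23 and 6 under quantile scaling, and 18 to 28 higher when 1 library was left out). By class, 14 rises were enhanced and 8 gained, 3 falls were lost, 2 were opposite and 5 rises were blunted. Their starting levels were mostly lower in shMLKL cells. CXCL10 (hg19 chr4:76942269-76944689, minus strand), a T cell chemoattractant induced by interferon, stood at 10.5 and 11.3 FPKM under DMSO and 17.7 and 17.6 FPKM after TBZ in shGFP cells. In shMLKL cells CXCL10 stood at 2.21 and 1.86 and then 10.7 and 11.9 FPKM. It rose in both lines and more in shMLKL cells, where the treated level still lay below that of shGFP cells (difference 1.38 ± 0.11 SE, limma adjusted p = 0.000217). TNFSF10 (TRAIL), a death receptor ligand, stood at 16.8 and 17.2 FPKM under DMSO and 50.1 and 53.6 FPKM after TBZ in shGFP cells. In shMLKL cells TNFSF10 stood at 4.95 and 4.36 and then 34.1 and 34.8 FPKM. Its log2 difference was 1.10 ± 0.08 (SE; limma adjusted p = 0.000164), but the FPKM increment was larger in shGFP cells, so that the sign depended on the scale. CYP1B1, a cytochrome P450 that is no member of this list, had the same shape, at 8.98 and 9.45 FPKM under DMSO and 35.7 and 36.1 FPKM after TBZ in shGFP cells. In shMLKL cells CYP1B1 stood at 2.60 and 2.32 and then 28.6 and 31.0 FPKM (difference 1.30 ± 0.09 SE, limma adjusted p = 8.39e-05). IFIT3 (hg19 chr10:91087576-91100725, plus strand), of a family that binds viral RNA, crossed over: it stood at 28.4 and 29.8 FPKM under DMSO and 36.1 and 32.3 FPKM after TBZ in shGFP cells. In shMLKL cells IFIT3 stood at 18.1 and 21.0 and then 49.1 and 52.7 FPKM (difference 1.11 ± 0.11 SE, limma adjusted p = 0.000687). IFIT5, of the same cluster, was level in shGFP cells and rose in shMLKL cells, at 12.6 and 14.0 FPKM under DMSO and 14.3 and 13.1 FPKM after TBZ in shGFP cells. In shMLKL cells IFIT5 stood at 10.4 and 9.25 and then 21.3 and 19.9 FPKM (difference 0.96 ± 0.11 SE, limma adjusted p = 0.00128). IFIT1 (hg19 chr10:91152303-91166244, plus strand) fell in shGFP cells and rose in shMLKL cells, at 20.5 and 18.6 FPKM under DMSO and 10.8 and 8.18 FPKM after TBZ in shGFP cells. In shMLKL cells IFIT1 stood at 8.87 and 8.96 and then 11.7 and 12.2 FPKM (difference 1.36 ± 0.15 SE, limma adjusted p = 0.00117). OAS2, an oligoadenylate synthetase, stayed lower in shMLKL cells in both conditions, at 39.1 and 41.8 FPKM under DMSO and 37.3 and 31.4 FPKM after TBZ in shGFP cells. In shMLKL cells OAS2 stood at 8.98 and 9.14 and then 15.7 and 13.8 FPKM; its rise was gained in shMLKL cells (difference 0.88 ± 0.12 SE, limma adjusted p = 0.00315). XAF1, an antagonist of XIAP, was enhanced (difference 1.08 ± 0.09 SE, limma adjusted p = 0.000341).

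Some interferon-induced genes went the other way. GBP1, a guanylate-binding GTPase, stood at 1.47 and 1.77 FPKM under DMSO and 39.5 and 41.2 FPKM after TBZ in shGFP cells. In shMLKL cells GBP1 stood at 0.436 and 0.463 and then 7.14 and 7.51 FPKM (difference −1.46 ± 0.10 SE, limma adjusted p = 0.000107), and GBP2 and GBP3 were blunted as well (−0.63 and −0.71). ISG20, an exonuclease, started higher in shMLKL cells, at 10.4 and 12.96 against 2.78 and 2.36 FPKM, and its rise was smaller (difference −1.18 ± 0.16 SE, limma adjusted p = 0.00232). Upstream sequences of IFIT1 and IFIT5 are given as examples of an opposite and a gained response. The same element also lay upstream of GBP1 (at −127) and ISG20 (at −69), whose effects were lower in shMLKL cells. The interferon-stimulated response element is in capitals, here read on the opposite strand (RefSeq, GRCh38.p14).
IFIT1 (chr10:89392473-89392622, plus strand): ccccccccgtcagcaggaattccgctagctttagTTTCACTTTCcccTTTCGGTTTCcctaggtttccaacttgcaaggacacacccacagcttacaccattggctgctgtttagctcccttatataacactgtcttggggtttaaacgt
IFIT5 (chr10:89414418-89414567, plus strand): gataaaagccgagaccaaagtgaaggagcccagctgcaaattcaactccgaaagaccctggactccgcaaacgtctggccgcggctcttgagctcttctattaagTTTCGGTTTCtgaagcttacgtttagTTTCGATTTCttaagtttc

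Over the 8561 tested genes with a RefSeq promoter, the 250 bases upstream were searched on both strands. The interferon-stimulated response element was found in 9 of 85 enhanced rises (10.6%), 8 of 175 gained rises (4.57%) and 2.36% of all promoters. The NF-kB consensus was found in 21 of 85 enhanced rises (24.7%), 30 of 299 blunted rises (10%) and 5.97% of all. TGANTCA was found in 28 of 299 blunted rises (9.36%) and 3.80% of all, and the EGR motif GCGNGGGCG in 66 (22.1%) and 13.8%. Neither was particular to rises: TGANTCA was found in 7 of 66 gained falls (10.6%). The EGR motif was found in 7 of 32 enhanced falls (21.9%) and 12 of 66 gained falls (18.2%). Blunted, lost and opposite falls lay below the share of all promoters for both motifs. Among 111 promoters of genes whose effect was at least 1 log2 unit lower in shMLKL cells, 8 held TGACGTCA (7.21%, against 3.11% of all) and 8 the SRF CArG box (7.21%, against 0.981%). TCACNCCAC, a sterol regulatory motif, was found in 1 of these 111 (0.901%, against 0.888%). A match describes the letters only, and INSIG1, HMGCS1, NR4A1, HBEGF and CSF2 held none of the sterol, AP-1 or NF-kB motifs in the window.

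Falls that were smaller in shMLKL cells included regulators of development. HOXA13 (hg19 chr7:27236499-27239725, minus strand), a homeobox factor of the hindgut, stood at 10.7 and 10.3 FPKM under DMSO and 1.51 and 1.17 FPKM after TBZ in shGFP cells. In shMLKL cells HOXA13 stood at 3.73 and 3.70 and then 2.92 and 2.86 FPKM. It fell in both lines from a lower start in shMLKL cells, and ended higher there (difference 2.02 ± 0.12 SE, limma adjusted p = 4.66e-05). HOXA9, of the same cluster, fell in shGFP cells and was level in shMLKL cells, at 13.2 and 12.2 FPKM under DMSO and 4.99 and 4.89 FPKM after TBZ in shGFP cells. In shMLKL cells HOXA9 stood at 8.57 and 8.35 and then 8.83 and 8.37 FPKM (difference 1.23 ± 0.08 SE, limma adjusted p = 7.98e-05). GATA2, a zinc finger factor, fell from 10.2 and 9.94 to 1.08 and 1.14 FPKM and from 2.50 and 3.23 to 1.31 and 1.30 FPKM (difference 1.65 ± 0.13 SE, limma adjusted p = 0.000235), and the treated lines were not called different. BMP4 (hg19 chr14:54416455-54423554, minus strand), a morphogen of the TGF-β superfamily, stood at 71.9 and 67.4 FPKM under DMSO and 7.45 and 6.82 FPKM after TBZ in shGFP cells. In shMLKL cells BMP4 stood at 34.2 and 32.2 and then 6.05 and 6.59 FPKM; it fell in both lines from unequal starts, and the treated lines were not called different (difference 0.90 ± 0.09 SE, limma adjusted p = 0.000617). SOSTDC1, an antagonist of BMP and WNT signals, was at 4.67 and 5.46 and 0.803 and 0.562 FPKM in shGFP cells and below 1 FPKM in shMLKL cells, at 0.596 and 0.563 and 0.199 and 0.364 FPKM (difference 1.55 ± 0.16 SE, limma adjusted p = 0.000791). Of 12 WNT targets and stem cell genes 6 had a higher and 1 a lower effect (58.3% called against 22.3% of all genes). LGR4, an R-spondin receptor, fell less in shMLKL cells (difference 0.57 ± 0.09 SE, limma adjusted p = 0.005), and the exception was DKK1.

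Cell cycle genes fell in shGFP cells and little in shMLKL cells. Of 44 measured, 29 had a higher and 0 a lower effect in shMLKL cells, with a median of 0.34 (22 and 27 higher under the other scalings, with 0 lower in each); 34 fell in shGFP cells and 11 in shMLKL cells. By class 15 falls were lost, 8 blunted and 5 opposite, and 1 gene, PCNA, had a gained rise. KIF20A, a kinesin of cytokinesis, stood at 9.16 and 8.48 FPKM under DMSO and 3.91 and 3.97 FPKM after TBZ in shGFP cells. In shMLKL cells KIF20A stood at 4.23 and 4.43 and then 4.48 and 4.14 FPKM. The shMLKL cells started at about the level to which shGFP cells fell (difference 0.98 ± 0.09 SE, limma adjusted p = 0.000478). CCNB2, a mitotic cyclin, differed by the treated level instead, at 43.5 and 40.9 FPKM under DMSO and 27.1 and 24.5 FPKM after TBZ in shGFP cells. In shMLKL cells CCNB2 stood at 42.2 and 35.9 and then 38.2 and 40.8 FPKM (difference 0.71 ± 0.12 SE, limma adjusted p = 0.00608). CCNE2, a cyclin of S-phase entry, was opposite, at 7.11 and 6.59 FPKM under DMSO and 4.89 and 5.00 FPKM after TBZ in shGFP cells. In shMLKL cells CCNE2 stood at 2.53 and 3.07 and then 3.66 and 3.73 FPKM (difference 0.71 ± 0.11 SE, limma adjusted p = 0.00572). Of these 29 genes the lines differed under DMSO only in 13 and under TBZ only in 5. Of 21 genes of the TRIM28 corepressor and its heterochromatin partners, 8 had a higher and 0 a lower effect (38.1% called against 22.3%). The counts were 4 and 1 with equal library medians; 4 genes were higher without shGFP DMSO library 2 or shGFP TBZ library 2, and 5 without shGFP TBZ library 1, shMLKL DMSO library 2 or shMLKL TBZ library 1. CBX5, encoding HP1α, was at 12.1 and 12.5 and 8.72 and 8.88 FPKM against 9.18 and 10.5 and 10.2 and 9.68 FPKM (difference 0.46 ± 0.09 SE, limma adjusted p = 0.0141).

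Falls were enhanced in 39 genes and gained in 89, against 104 and 215 rises. This order turned with the scaling: equal library medians gave 61 enhanced and 149 gained falls against 59 and 100 rises, and quantile normalization gave 136 gained falls against 125 gained rises. The named genes with such falls started higher in shMLKL cells. DKK1 (hg19 chr10:54074041-54077417, plus strand), a secreted WNT inhibitor, stood at 5.76 and 6.33 FPKM under DMSO and 2.14 and 2.19 FPKM after TBZ in shGFP cells. In shMLKL cells DKK1 stood at 27.1 and 25.8 and then 1.41 and 1.52 FPKM. It fell in both lines, and from a start 1.96 log2 units higher in shMLKL cells to a level slightly below that of shGFP cells (difference −2.33 ± 0.09 SE, limma adjusted p = 7.42e-06). DHRS9, a retinol dehydrogenase, and FGF19, an endocrine growth factor of the ileum, had enhanced falls with differences of −1.25 and −0.90 (limma adjusted p = 0.000785 and 0.0114). FGF19 lost its call with a pseudocount of 0.5 (−0.74, limma adjusted p = 0.0535) or 0.1 (−0.42, limma adjusted p = 0.388). GPRC5A, an orphan receptor induced by retinoic acid, and EMP1, a membrane protein of epithelia, had no called change in shGFP cells and fell in shMLKL cells. GPRC5A stood at 63.0 and 68.7 FPKM under DMSO and 66.3 and 65.4 FPKM after TBZ in shGFP cells. In shMLKL cells GPRC5A stood at 149.6 and 157 and then 78.7 and 80.4 FPKM (difference −0.94 ± 0.07 SE, limma adjusted p = 0.000121). SLC2A1, the glucose transporter GLUT1, fell more in shMLKL cells (difference −0.55 ± 0.06 SE, limma adjusted p = 0.00113). AKAP12, a scaffold of protein kinase A, was the largest opposite response, at 1.07 and 1.46 FPKM under DMSO and 5.04 and 5.40 FPKM after TBZ in shGFP cells. In shMLKL cells AKAP12 stood at 8.10 and 10.8 and then 2.43 and 2.15 FPKM (difference −3.12 ± 0.19 SE, limma adjusted p = 7.04e-05).

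The necroptosis machinery itself was called no more often than other genes: 7 of 33 (21.2%) against 22.3%, 3 higher and 4 lower, with 2 lower without shGFP DMSO library 2, either shGFP TBZ library or either shMLKL DMSO library. The sign of its median, 0.09 as deposited, turned under both other scalings. RIPK1, the kinase at the head of the pathway, was at 9.53 and 9.03 FPKM under DMSO and 12.4 and 11.6 FPKM after TBZ in shGFP cells. In shMLKL cells RIPK1 stood at 8.66 and 9.07 and then 11.5 and 11.5 FPKM, a difference of −0.00108 with a 95% interval of −0.18 to 0.18 (limma adjusted p = 0.994). RIPK3, which phosphorylates MLKL, differed by 0.09 (interval −0.28 to 0.46, limma adjusted p = 0.704) at levels of 1.74 to 3.09 FPKM. CASP8, whose activity restrains the necrosome, differed by 0.20 (interval −0.009 to 0.41, limma adjusted p = 0.147), and TNFRSF1A, encoding TNFR1, by −0.12 (interval −0.35 to 0.12, limma adjusted p = 0.44). None of these 4 passed the test. The intervals reflect the spread between these libraries alone, which may be technical, so they do not show that the effects were equal. MLKL differed by 0.66 ± 0.14 (SE; limma adjusted p = 0.0147), a fall in shGFP cells with none called in the depleted cells, where levels were below 1 FPKM; the call was lost without shGFP DMSO library 1 and with a pseudocount of 0.1. CFLAR, the caspase 8 regulator cFLIP, was a blunted rise (difference −0.60 ± 0.10 SE, limma adjusted p = 0.00643). The adaptors FADD (0.55) and TRAF2 (0.65) lost their calls under 8 and 9 of the alternatives. Of 29 genes of ESCRT-III and membrane repair, which sheds damaged membrane, 8 were called (27.6%), 2 higher and 6 lower, with 3 lower without library 1 of either shGFP group. They were led by ANXA2 (−0.52), ANXA5 (−0.48) and VPS37B (−0.45), the last of which lost its call without the same libraries.

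The other 4 libraries of the series, from an earlier experiment with 1 library a group, gave values that the fit had not used. They compare shMLKL cells after 12 h of TBZ with parental cells after 4 h, so both the time and the control differ, and there is no test. Centred on the median of 10268 matched genes, the difference there was below 0 for 127 of 144 genes (88.2%) with a large negative difference at 5 h, with a median of −1.1, against 50% of all genes. For the 51 genes with a large positive difference, the difference there was below 0 in 28 (54.9%), with a median of −0.03. Without centring, 21 (41.2%) were below 0 and 45.1% above, with a median of 0. Centring thus placed unchanged genes below 0, and these genes were not shifted to either side. Of 364 blunted rises 281 lay below 0 (77.2%). Blunted falls were above 0 in 67.5%, with a median of 0.39. The enhanced rises were not shifted, with 51.9% below 0 and a median of −0.03 (49% and 0 without centring). CXCL8 went from 1.13 to 1110.0 FPKM in parental cells and from 1.06 to 42.9 FPKM. HBEGF went from 7.85 to 65.1 FPKM in parental cells and from 11.8 to 9.49 FPKM. CXCL10 went from 1.38 to 38.7 FPKM in parental cells and from 1.80 to 446 FPKM, the reverse order. IFIT3 (1.503) and TNFSF10 (2.3) were on the same side as at 5 h, IFIT1 (−0.242) was not, and DKK1 (0.973) had the opposite sign.

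The DMSO gap of the lines was not the same in those libraries. For 346 genes whose rise was smaller or opposite in shMLKL cells and whose DMSO level was higher there, with the DMSO gap the larger, the median line difference under DMSO was 0.62 in the 5 h experiment and −0.16 in the earlier one, where 34.7% were above 0 against 50% of all genes. KRT20 stood at 215 FPKM in parental and 205 in shMLKL cells under DMSO, PPP1R15A at 99.5 and 69.8 FPKM, and CDKN2B at 18.1 and 11.6 FPKM. For 217 enhanced or gained rises with a lower DMSO level in shMLKL cells, the medians were −0.49 and 0.12. In the earlier experiment 59.9% of these were above 0. The earlier values were centred on the median of all genes. The 5 h values were not, and their median over all genes was −0.162. The signs at 5 h were fixed by how these genes were chosen. The earlier medians lay on the other side of 0, though not every gene did. The control lines of the experiments were not the same.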

How the data were processed

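Per the labels' protocols, polyadenylated RNA went into stranded TruSeq libraries that the authors read on a HiSeq2000. The submitters' processing notes list the genome hg19 and, with neither role nor order, GATK, STAR 2.4.0f1, TopHat2 2.0.13 and Cufflinks 2.2.1. The authors deposited 1 table for the 8 libraries, taken here as FPKM from its values, and per-transcript FPKM lists for the first experiment, of which RefSeq transcripts were summed per symbol. Whether the authors scaled libraries further is not stated in the sources used here.

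Of 29437 lines, 384 symbols stood on several; the highest line was used, and genes needed a group mean of 1 FPKM. Log2(FPKM + 1) values entered limma 3.58.1 (R 4.3.3) as 4 group means with a trend in the spread (4 residual and 3.46 prior degrees of freedom), tested two-sided on all 10364 genes with Benjamini-Hochberg adjustment. A fold on this scale understates changes of low genes. The script was tested on simulated data. Relative depth came from the values of genes at 0.15 FPKM or less. Coordinates of genes are hg19, from the deposited transcripts, and promoters are from RefSeq (8561 of 10364 genes matched).

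The members and lists were chosen with earlier results of these data known. Named genes are MLKL, RIPK1, RIPK3, CASP8 and TNFRSF1A and, among called genes that reach 5 FPKM in the highest group and have no 0, the 5 largest of blunted, lost, enhanced and gained rises, the 3 largest of blunted, lost, enhanced and gained falls and of each opposite class, up to 3 called members of each list with 3 or more called, and the 3 largest that differed under DMSO only. BRI3, KRT8, NFKBIA, TNFAIP3, FOS, JUN, FOSB, ATF3, POLH, GBP2, GBP3 and PCNA, the examples from the first experiment and the genes of the closing section were chosen after their values were seen. Alternatives covered the pseudocount, filter, scaling, repeated lines, spread model, replicate block and each library left out. They also covered the definition of lost responses and the additive scale. A count of the main calls among genes above 0 in all libraries, without a new fit, was chosen after seeing the data. Some genes that the naming rule takes are not reported here.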

Additional observations from a re-analysis of the deposited data

Results flagged for a closer look

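The effects of TBZ in the lines differed by the test of the difference itself (limma, adjusted p under 0.05) for 2306 genes, of which 1512 had a higher and 794 a lower effect in shMLKL cells. The difference was at least 1 log2 unit in 195 genes. In 81 genes a called rise in shGFP cells stood against a called fall in shMLKL cells, led by AKAP12, CYR61 and ERRFI1. In 89 genes a called fall stood against a called rise, led by IFIT1, MCEE and CCDC167. Groups of 2 libraries are too small to look for single outlying libraries.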

How the results depend on the processing

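Of the 88 named genes that were called, 79 were called under every alternative, and the exceptions were MLKL, TRAF2, FADD, CTSO, HIST1H2BL, MPHOSPH8, FGF19, CBX5 and VPS37B. With library medians set equal, 696 calls were positive, and the classes held 129 blunted falls, 342 lost rises and 358 lost falls, 41 opposite falls, 59 enhanced rises and 61 enhanced falls, and 100 gained rises and 149 gained falls. Quantile normalization gave 334 lost rises, 57 enhanced rises, 125 gained rises and 136 gained falls. A pseudocount of 0.1 gave 322 differences of at least 1. The cause of these shifts was not tested. Without centring, the medians in the first experiment were −0.329 for negative and 0.158 for positive calls.

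With 1 library left out, the calls numbered 1327 to 1683, positive 757 to 1021 and negative 570 to 696, with 193 to 220 of at least 1. The ranges were 270 to 329 blunted rises and 87 to 141 blunted falls, 148 to 237 lost rises and 406 to 632 lost falls, 56 to 74 and 47 to 73 opposite, 40 to 74 and 20 to 36 enhanced, and 115 to 137 and 57 to 79 gained; 397 to 663 genes differed between the lines under DMSO only and 269 to 355 under TBZ only. A group left with 1 library is assumed to vary like the others. The sign of uncalled values turned: RIPK1 was 0.000199 with a pseudocount of 0.1 and ran from −0.0488 to 0.0466 with 1 library left out, and RIPK3 was −0.00239 with equal medians, −0.0433 after quantile normalization and −0.0586 to 0.239 with 1 library left out. TNFSF10 was −5.04 as a difference of FPKM increments.

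Replicate numbers did not pair the libraries: deviations of same-numbered libraries correlated at −0.066 to 0.0282 over 6 group pairs. With the replicate block 2062 genes were called, of which 1962 were among the 2306.

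No read counts were used, so counting error is unknown, and levels near or below 1 FPKM (MLKL in shMLKL cells, SOSTDC1, CSF2 under DMSO) are the least certain. With 2 libraries a group the spread rests on few degrees of freedom shared by all groups. Line and shRNA cannot be told apart, nor can loss of cells and loss of RNA per cell.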

Other observations

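Some lists moved little or in mixed directions. Of 28 genes of glycolysis and hypoxia, 4 had a higher and 7 a lower effect in shMLKL cells (39.3% against 22.3% of all genes), with a median of −0.04; 2 were higher and 9 lower with library medians set equal, and 1 was higher without shGFP DMSO library 1. PFKFB3, which makes the activator of phosphofructokinase, rose to 10.4 and 10.3 FPKM in shGFP and 3.72 and 3.57 FPKM in shMLKL cells from 2.76 and 2.31 and 1.85 and 1.66 FPKM (difference −0.93 ± 0.11 SE, limma adjusted p = 0.00171). ADM, the vasodilator adrenomedullin, was a blunted rise as well (difference −0.94 ± 0.16 SE, limma adjusted p = 0.00688). Of 27 intestinal differentiation genes 2 had a higher and 6 a lower effect (29.6% called, near the 22.3% of all genes). MUC5AC, a gel-forming mucin of the stomach that colon tumours can express, stood at 3.34 and 3.42 FPKM under DMSO and 13.9 and 15.6 FPKM after TBZ in shGFP cells. In shMLKL cells MUC5AC stood at 2.95 and 3.34 and then 7.13 and 6.85 FPKM (difference −0.90 ± 0.11 SE, limma adjusted p = 0.00152). KLF4, a factor of differentiating epithelium, rose less in shMLKL cells from a higher start (difference −0.64 ± 0.10 SE, limma adjusted p = 0.00411).

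Genes listed at 0 in some libraries gave the most extreme differences. Among the 195 genes that differed by at least 1 log2 unit, 13 were at 0 in 6 of 8 libraries, BRI3 among them. The 167 others of that size, left when the 28 with any 0 were set aside, were above 0 in all 8 libraries. They were counted in the same fit, and no new fit was made without the genes at 0. In the first experiment 1 entry of chromosome 1, from base 567705 to base 567793, held 83.3 to 89.9% of all FPKM in each library, and it was left out of gene values there.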
